A study of Mus musculus with 2 samples.

Results

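The genes described here code for proteins with a BTB domain, a fold through which proteins pair with each other, and carry the family names Zbtb, Klhl, Kctd, Kbtbd or Btbd. They were chosen by name from a table of 14398 genes: 97 names matched, and the 95 whose mean signal over both libraries was at least 50 were kept. These were 39 Zbtb, 23 Klhl, 17 Kctd, 6 Kbtbd and 10 Btbd genes, set against the 12679 genes of the table at or above that floor. The rule used names and mean levels and no ratio, but it was set with earlier results of these data known. A gene low in either library alone can also pass such a floor through the other. Of the matched names, Kbtbd3 (mean 28.5) and Klhl10 (mean 25.0) were the 2 names under the floor, and Kctd12 (56.0) and Klhl3 (63.5) were the lowest above it. Another 25 coding genes with such names in the GENCODE annotation, among them Zbtb16, Klhl6 and Kctd8, were not in the table and are given no level. One gene that the names pick up, Zbtb8os, is no BTB gene: it is named for lying on the strand opposite Zbtb8a and makes archease, a helper of tRNA ligation.

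The 2 libraries came from 46C, a line of mouse embryonic stem cells, at passages 21 to 24, kept in serum medium with the self-renewal cytokine LIF. The control cells had received an empty vector, named PB in the labels. The other culture was transfected with PB-ID2 and overexpressed ID2, a helix-loop-helix protein that binds E proteins and blocks their contact with DNA. Each group was 1 library, so there is no replicate error and no test of any difference. "Higher" and "lower" mean the ID2 library against the control library, and the labels do not say whether either culture was 1 clone. Id2 itself had a signal of 324 in control cells and of 26225 under ID2. All 10 listed embryonic stem cell markers were in the table, with summed signals of 157110 (control) and 184620 (ID2). Of 10 fibroblast or feeder markers 6 were listed, with summed signals of 2334 and 1612. Loxl1 (191 and 262) was higher and the others listed were lower, and Col3a1, Postn, Lum and Dcn were absent from the table. Extraembryonic endoderm markers (5 of 8 listed) summed to 333 and 386, with Sox7 (16.9 and 127) higher and Gata4 (146 and 76.4) lower. Neural markers (4 of 7) summed to 2001 and 2546, with Sox1 (1.02) and Tubb3 (0.56) higher and Nes (−0.88) and Map2 (−0.52) lower. Trophoblast markers (4 of 6) summed to 4502 and 3140, a sum carried by Tfap2c (3697 and 2150). Hand1 (28.9 and 17.1) was also lower, while Eomes (0.42) and Krt8 (0.30) were higher. In bulk RNA, fewer cells of a type and less RNA per cell cannot be told apart, and the part of such cells in the differences below was not tested.

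Zbtb proteins join a BTB domain to zinc fingers that bind DNA, and many of them repress transcription by recruiting corepressors such as NCOR and histone deacetylases. Klhl and Kbtbd proteins join the BTB domain to Kelch repeats and serve as substrate adaptors of CUL3 ubiquitin ligases: the BTB domain holds the cullin and the repeats hold the protein to be marked. Kctd proteins have a short BTB domain that forms rings, and several also work with CUL3, while Btbd genes are a mixed group.

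Signal values are the authors' normalized values, and ratios are log2 of ID2 over control after adding 1 to both values. The 95 members had a median log2 ratio of 0.05, and the 12679 genes above the floor had a median of −0.002. Of the members, 52 were higher (54.7%, beside 47.2% of all genes) and 43 lower, in a table where 51.5% of all genes were lower. Higher and lower genes were counted on unscaled whole steps, as described below, so a gene near equal can be counted against the sign of its ratio. At least 2-fold higher were 5 members (5.26%), where 2.53% of all genes above the floor passed that line. No member was at least 2-fold lower, where 1.86% of all genes were. At a line of 1.5-fold, 12 members were higher (12.6%, beside 8.00% of all genes) and 4 lower (4.21%, beside 6.59%). With counts this small, each share rests on a handful of genes. Within 0.1 of no difference lay 22 members (23.2%, beside 25.3% of all genes).

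**Figure D1:**
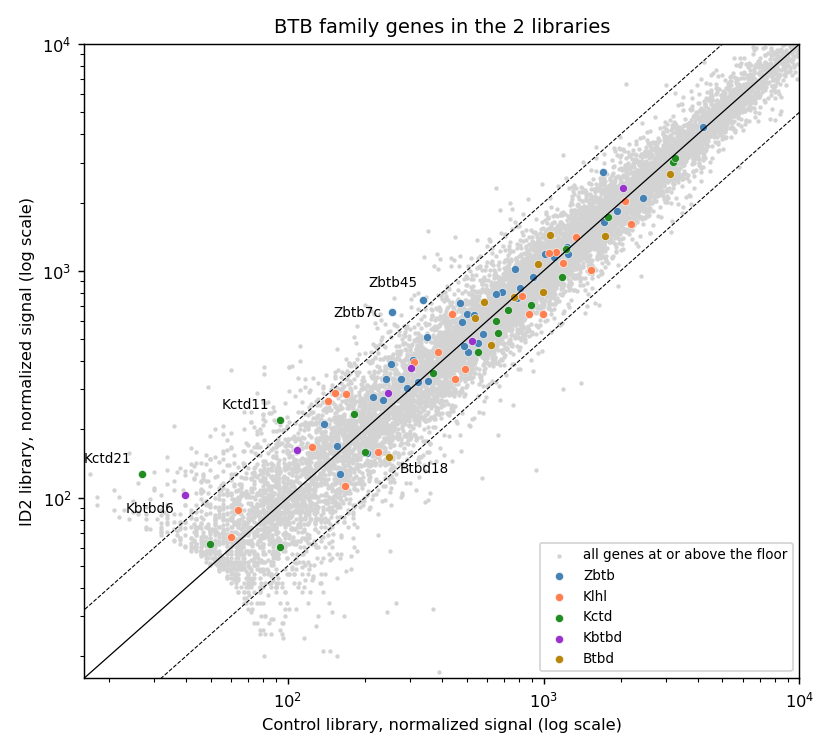
Normalized signal of each gene in the control library (x axis, log scale) and the ID2 library (y axis, log scale); grey points are all genes at or above the floor and colored points are the BTB family members. The solid line marks equal signal and the dashed lines a 2-fold difference; 5 members lie above the upper dashed line and 0 below the lower one.

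The 5 members that were at least 2-fold higher came from both classes. Kctd21, an adaptor that with CUL3 targets the deacetylase HDAC1 in the Hedgehog pathway, had a signal of 26.9 in control cells and 128 under ID2, a log2 ratio of 2.21. Zbtb7c, a zinc finger gene of the group of Zbtb7a, stood at 256 and 661 (1.37). Kbtbd6, an adaptor that with Kbtbd7 targets the RAC1 activator TIAM1, stood at 39.8 and 102 (1.34). Of the 5 genes, Kctd21 and Kbtbd6 had control signals under 50. They passed the floor on the mean only through the ID2 values that also make their ratios high. Ratios of all genes spread most at low signals. Kctd11, a relative of Kctd21 with the same target, stood at 93.5 and 220 (1.23). Zbtb45, a zinc finger gene linked to glial differentiation, stood at 338 and 744 (1.13). Genes with means of 50 to 250 had log2 ratios that ran from −1.07 at the 5th percentile to 1.18 at the 95th, and Kctd21, Kbtbd6 and Kctd11 lay above that range. For means of 250 to 1000 that range ran from −0.61 to 0.71. Zbtb7c and Zbtb45 lay above it, as any gene picked at 2-fold higher would. By definition 5% of all genes at a level lie above such a range and 5% below it. The only other members outside the range of their level were Zbtb7a, Klhl13, Klhl21 and Klhl24. In the authors' deposited table Zbtb7c has an adjusted p of 0.358 and Zbtb45 of 0.640. The authors' deposited table gives no member an adjusted p under 0.05, and an unadjusted p under 0.05 to 4 members (4.21%, beside 4.33% of genes above the floor): Zbtb7c, Zbtb45, Kctd21 and Zbtb7a.

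**Figure D2:**
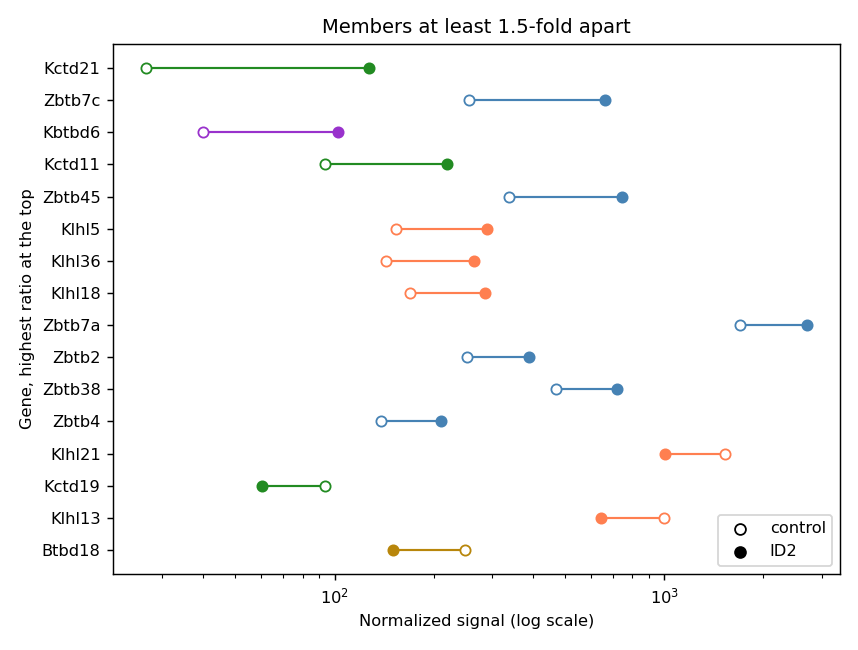
Normalized signal (x axis, log scale) of the 16 members that were at least 1.5-fold apart, 1 gene a row with the highest ratio at the top; open circles are the control library, filled circles the ID2 library, colored by family as in the scatter plot. The filled circle lies to the right of the open one in 12 genes and to the left in Klhl21, Kctd19, Klhl13 and Btbd18.

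E proteins, the partners that ID2 holds off DNA, bind E-boxes, which read CANNTG, so the letters before the start sites of some members at both ends of the range are shown. They are the 250 bases before the start of 3 of the 5 members at least 2-fold higher (Zbtb7c and Kbtbd6 are not shown) and of Btbd18, the member with the lowest ratio, from RefSeq on GRCm38.p6, each on the strand of its gene. Capitals mark every CANNTG, whose outer letters read alike on both strands.
Kctd21: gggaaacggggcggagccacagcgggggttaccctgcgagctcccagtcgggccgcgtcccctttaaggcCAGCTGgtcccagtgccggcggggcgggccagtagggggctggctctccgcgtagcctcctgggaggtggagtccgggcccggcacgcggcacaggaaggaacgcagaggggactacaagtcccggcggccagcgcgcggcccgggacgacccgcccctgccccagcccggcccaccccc
Kctd11: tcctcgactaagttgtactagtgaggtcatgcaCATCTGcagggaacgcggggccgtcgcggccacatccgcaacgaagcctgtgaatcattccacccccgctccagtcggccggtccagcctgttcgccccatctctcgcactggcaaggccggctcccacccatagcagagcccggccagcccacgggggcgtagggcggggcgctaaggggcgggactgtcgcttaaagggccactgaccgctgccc
Zbtb45: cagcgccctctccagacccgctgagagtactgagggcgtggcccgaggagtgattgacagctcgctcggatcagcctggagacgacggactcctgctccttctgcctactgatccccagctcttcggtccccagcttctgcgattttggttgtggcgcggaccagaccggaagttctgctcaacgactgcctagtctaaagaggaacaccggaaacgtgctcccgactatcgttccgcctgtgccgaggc
Btbd18: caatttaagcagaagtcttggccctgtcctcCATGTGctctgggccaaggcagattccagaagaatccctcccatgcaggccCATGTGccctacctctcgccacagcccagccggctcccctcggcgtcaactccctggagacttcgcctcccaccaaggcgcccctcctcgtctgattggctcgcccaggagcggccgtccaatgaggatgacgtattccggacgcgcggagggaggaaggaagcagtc
These windows lie at chr7:97332073-97332322 (plus strand), chr11:69880986-69881235 (minus), chr7:13009853-13010102 (minus) and chr2:84658829-84659078 (plus). Kctd21 and Kctd11 each held 1 E-box, Zbtb45 held 0 and Btbd18 held 2. The Kctd21 match reads CAGCTG, while the Kctd11 match and both Btbd18 matches have other central letters. Windows of 300 bases (250 before and 50 after the start) were matched by symbol for 80 of the 95 members and 9397 genes above the floor. A CANNTG was found in 66 of 113 such windows of members (58.4%) and in 63.5% of the 12050 windows of all genes above the floor. CAGCTG, which is one form of it, was found in 14 windows of members (12.4%, beside 15.0%). CAGGTG, or CACCTG as the other strand reads it, was found in 18 (15.9%, beside 18.7%). A gene can have several windows, and counted by gene a CANNTG stood before 45 of 80 members (56.3%) and 66.9% of all genes. Zbtb genes and E3 adaptors had it in 60.4% and 56.9% of windows but in 51.4% (18 of 35) and 60.0% (27 of 45) of genes, so that their order turned with the way of counting. A match is a run of letters and not a bound site.

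The 2 classes that the comparison sets side by side were the 39 Zbtb genes, whose products bind DNA (Zbtb8os is counted by its name), and the 56 genes of the other names, grouped as E3 adaptors. Zbtb genes were more often higher than lower, 26 to 13 (66.7% higher, beside 47.2% of all genes), with a median log2 ratio of 0.12 and quartiles of −0.07 and 0.38. Among the adaptors 26 were higher (46.4%, near the share of all genes) and 30 lower. Their median was −0.04 with quartiles of −0.33 and 0.31. The medians of the classes thus lay 0.16 apart on the log2 scale. At the 1.5-fold line 6 Zbtb genes were higher (15.4%) and 0 lower, while 6 adaptors were higher (10.7%) and 4 lower (7.14%). The direction of the difference between the class medians rested on Kctd and Btbd, whose medians were −0.09 and −0.11. The share of genes higher was 52.2% in Klhl and 83.3% in Kbtbd, beside 66.7% in Zbtb. The medians of Klhl and Kbtbd were 0.08 and 0.27, and with these 2 families alone as adaptors, a choice made after seeing the values, the adaptor median was 0.17 and the Zbtb median lay 0.05 below it. The order also differed by level. At means of 50 to 250 the medians were 0.12 for 5 Zbtb genes and 0.42 for 17 adaptors. At 250 to 1000 they were 0.27 for 25 Zbtb genes and −0.11 for 22 adaptors, and above 1000 they were 0.04 and −0.05.

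**Figure D3:**
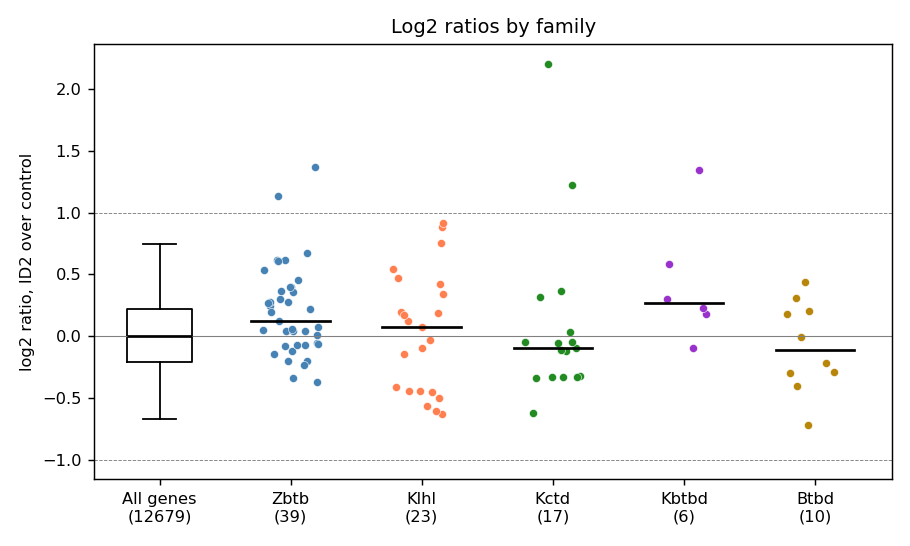
Log2 ratio of ID2 over control (y axis) for each member by family, with horizontal bars at the family medians (0.12, 0.08, −0.09, 0.27 and −0.11 from left to right); the box shows the median and quartiles of all 12679 genes above the floor, with whiskers at their 5th and 95th percentiles. Dashed lines mark 2-fold, and most members of every family lie within the range of all genes.

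Among the Zbtb genes, the group named Zbtb7 had members apart from each other. Zbtb7a, a repressor of fetal globin genes and a regulator of blood lineages, stood at 1703 and 2718 (log2 ratio 0.67, 1.60-fold). Zbtb7b, which sets the helper T cell fate, stood at 1724 and 1636 (−0.08). Only Zbtb7a and Zbtb7c of the 3 were over 1.5-fold higher in the ID2 library. For means above 1000 the 95th percentile of all genes was 0.49, and Zbtb7a lay above it.

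The methyl-DNA readers, which bind methylated CpG sites, were all higher (3 of 3, beside 47.2% of all genes above the floor). Zbtb38 stood at 470 and 719 (0.61). Zbtb4 stood at 138 and 211 (0.61), and Zbtb33, known as Kaiso, at 277 and 335 (0.27). Both of the first pair passed 1.5-fold, and all 3 lay inside the 5th-to-95th percentile range of genes at their level. All 3 hold most of their transcript in the largest exon (94.3% in Zbtb33, 84.5% in Zbtb38 and 83.9% in Zbtb4). They belong to the exon class described further below. Of all coding genes in that class, 58.2% were higher and 17.9% at least 1.5-fold higher. The part of exon structure in these ratios was not tested. Of the genes of genome upkeep, Zbtb24, which is mutated in a syndrome of lost centromeric methylation, stood at 504 and 645 (0.36), and Zbtb40 at 773 and 1021 (0.40). Zbtb48, which binds telomere repeats, stood at 1093 and 1154 (0.08), and Zbtb10 at 321 and 324 (0.01), close to equal.

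Zbtb genes known from blood and other lineages stayed within 1.5-fold, with 5 of 7 higher (71.4%, beside 47.2% of all genes above the floor). The lymphoid factor Zbtb1 stood at 308 and 406 (0.39), and its neighbor on the chromosome, Zbtb25, at 215 and 277 (0.37). Zbtb18, a repressor in cortical neurons, stood at 1014 and 1182 (0.22), Zbtb46, a marker of classical dendritic cells, at 235 and 269 (0.20), and Zbtb17, the MYC partner MIZ1, at 1239 and 1278 (0.04). The lower genes were Zbtb20, a factor of hippocampus and liver (160 and 127, −0.34), and Zbtb32, a repressor in lymphocytes (555 and 482, −0.20).

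Of the other 21 Zbtb genes, 12 were higher (57.1%, beside 47.2% of all genes above the floor) and 9 lower (median 0.04). Zbtb2, which binds CpG-rich promoters, stood at 253 and 388 (0.62) and was next in ratio to Zbtb45. Zbtb8a (0.53), Zbtb6 (0.46), Zbtb14 (0.30), Zbtb5 (0.27), Zbtb11 (0.24) and Zbtb3 (0.12) were also higher, and Zbtb8os, set apart from these 21, had a ratio of 0.28. The most negative ratio of any Zbtb gene was that of Zbtb42 (203 and 157, −0.37), followed in this group by Zbtb43 (2454 and 2088, −0.23), Zbtb26 (−0.20), Zbtb37 (−0.14) and Zbtb49 (−0.12). Zbtb44, which had the highest signal of all members before correction for length, stood at 4190 and 4314 (0.04). The remaining 7 genes of this group, Zbtb34, Zbtb39, Zbtb41, Zbtb12, Zbtb22, Zbtb21 and Zbtb8b, had ratios from −0.08 to 0.06.

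In the Kctd family 12 of 17 genes were lower, beside 51.5% of all genes above the floor. The genes furthest up belonged to 1 group. Kctd21 and Kctd11 are known with Kctd6 as suppressors of Hedgehog signaling through HDAC1. Kctd6 went the other way, from 890 in control cells to 705 under ID2 (−0.33). Outside this group, which holds the highest ratios of the family, 11 of 14 Kctd genes were lower (beside 51.5% of all genes), with a median of −0.10. Leaving out the highest ratios in itself favors lower genes among the rest. None of these 14 genes was 2-fold apart, and the family median with the group included was −0.09.

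The remaining Kctd genes stayed within 1.5-fold apart from Kctd19. Of the genes whose products bind G protein beta subunits, Kctd5 stood at 1778 and 1719 (−0.05), Kctd17 at 1223 and 1252 (0.03) and Kctd2 at 1184 and 944 (−0.33). Kctd13 (553 and 438, −0.34) and Kctd10 (728 and 669, −0.12), which with CUL3 target the GTPase RHOA, were both lower. Of the pair that binds AP-2 transcription factors, Kctd15 was lower (−0.11) and Kctd1 higher (0.36).

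Kctd12, an auxiliary subunit of GABA-B receptors, stood at 49.8 and 62.3 (0.32). Kctd19, a meiotic gene, had the lowest ratio of the family, with 93.5 and 60.3 (−0.63). Kctd7 (−0.33) and Kctd18 (−0.32) were also lower, while Kctd3 (3252 and 3135, −0.05), Kctd20 (3206 and 3008, −0.09), a regulator of AKT, and Kctd9 (368 and 356, −0.05) were near equal.

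Klhl genes were spread to both sides, 12 higher and 11 lower, with a median absolute log2 ratio of 0.44 where all genes above the floor had 0.22. That comparison was not matched for level, and the median of the Klhl means was 430. All genes with means of 50 to 250 had a median absolute log2 ratio of 0.39, and those of 250 to 1000 had 0.23. No Klhl gene was 2-fold apart. In the mitotic group, adaptors that target kinases and other proteins of cell division, Klhl13 and Klhl9 act together on the kinase Aurora B. Klhl13 stood at 997 and 645 (−0.63) and Klhl9 at 440 and 642 (0.54), so that their ratios had opposite signs. They are close paralogs, whose reads the authors' counting could have split between them. Klhl21, which also targets Aurora B, stood at 1533 and 1007 (−0.61). Klhl13 lay just below the 5th percentile of all genes with means of 250 to 1000 (−0.61), and Klhl21 below that of genes with means above 1000 (−0.42), where Klhl24 also lay. Klhl18, linked to Aurora A, stood at 169 and 285 (0.75), Klhl42, an adaptor for the microtubule-severing protein katanin, at 312 and 396 (0.34), and Klhl22, linked to PLK1, at 1049 and 1199 (0.19).

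Outside that group, Klhl5 stood at 153 and 289 (0.91) and Klhl36 at 143 and 265 (0.88), the highest ratios of the family. Klhl5 was placed with the genes of actin and muscle, of which Klhl17 stood at 1117 and 1214 (0.12) and Klhl2 at 826 and 772 (−0.10). Klhl32 (0.47), Klhl23 (0.42), Klhl25 (0.19), which targets an inhibitor of translation initiation, and Klhl3 (0.17), an adaptor for WNK kinases, were higher. The lower genes were Klhl15 (167 and 113, −0.57), Klhl28 (−0.50), Klhl24 (2197 and 1603, −0.45), which targets keratin, Klhl8 (−0.45), Klhl7 (−0.44), Klhl11 (−0.41) and Klhl26 (−0.15). Klhl12, which acts on the COPII coat and on Dishevelled, stood at 2074 and 2032 (−0.03), and Klhl20, an adaptor for PML and DAPK1, at 1341 and 1413 (0.07).

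Of the 6 Kbtbd genes 5 were higher (83.3%, beside 47.2% of all genes above the floor). Kbtbd7, the partner and chromosomal neighbor of Kbtbd6, stood at 303 and 374 (0.30), well short of the ratio of Kbtbd6, and the 2 genes are close paralogs that may share reads. Kbtbd4, an adaptor for the CoREST complex, stood at 108 and 163 (0.58). Kbtbd8, which acts on ribosome biogenesis factors in the neural crest, had a ratio of 0.23. Kbtbd11 stood at 2042 and 2313 (0.18). Kbtbd2, which targets a regulatory subunit of PI3 kinase, was the 1 lower gene (525 and 490, −0.10).

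Of the 10 Btbd genes 4 were higher (40%, beside 47.2% of all genes above the floor) and 6 lower. Btbd18, a gene of piRNA production in the testis, had the lowest ratio of all members, at 249 and 151 (−0.72). Btbd3 (−0.40), Btbd1 (1744 and 1419, −0.30), Btbd10 (−0.29) and Btbd2 (3110 and 2680, −0.21) were lower, of which Btbd1 and Btbd2 bind topoisomerase I. Btbd9, a gene linked to restless legs syndrome, stood at 768 and 766 and was nearest to equal of all members. Btbd19 (1061 and 1437, 0.44), Btbd11 (0.31), Btbd6 (539 and 621, 0.20) and Btbd7 (948 and 1075, 0.18) were higher.

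Levels of different genes were compared only as signal per kilobase of the longest coding transcript in GENCODE M21, an annotation that may differ from the authors'. On that scale Btbd2 (957 per kb), Kctd3 (862) and Btbd19 (771) were highest in the mean of both libraries. Of the 10 highest members Zbtb48 (506) and Zbtb44 (480) were the Zbtb genes at ranks 9 and 10. The class medians were close, 125 per kb for Zbtb genes and 131 for adaptors. Btbd19 went from rank 6 in the control to rank 1 in the ID2 library, while Kctd17 was at rank 4 and Klhl12 at rank 7 in both. Kctd21 was at rank 90 of 94 in control cells and at rank 81 under ID2.

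Many of these genes hold most of their transcript in 1 exon. At least 80% of the longest coding transcript lay in 1 exon in 36 of 94 members with a value (38.3%), beside 15.0% of 11739 coding genes above the floor. Across all coding genes that class was itself shifted: 17.9% of it was at least 1.5-fold higher and 5.91% lower, where the shares of the other coding genes were 5.77% and 5.84%. Past 1.5-fold, 6 of the 36 members in the class were higher (16.7%) and 1 lower, and of the other members 6 of 58 were higher (10.3%) and 3 lower. Kctd21, Kctd11 and Kbtbd6, the adaptors at least 2-fold higher, all belong to the class, while Zbtb7c and Zbtb45 do not. At that line 3 of 36 members in the class were higher (8.33%), near the 6.71% of all coding genes in it. Outside the class the shares were 3.45% of members and 1.53% of coding genes. The median ratio of adaptors in the class was 0.30 (13 genes) and that of the other adaptors −0.05 (42 genes). For Zbtb genes the medians were 0.12 (23 genes) and 0.14 (16 genes). All coding genes had medians of 0.09 in the class and −0.009 outside it. Most Zbtb genes (23 of 39) belong to this class, and most adaptors do not. Within the class the Zbtb median lay below the adaptor median by 0.18, and outside it above by 0.19. What part exon structure has in these ratios was not tested.

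**Figure D4:**
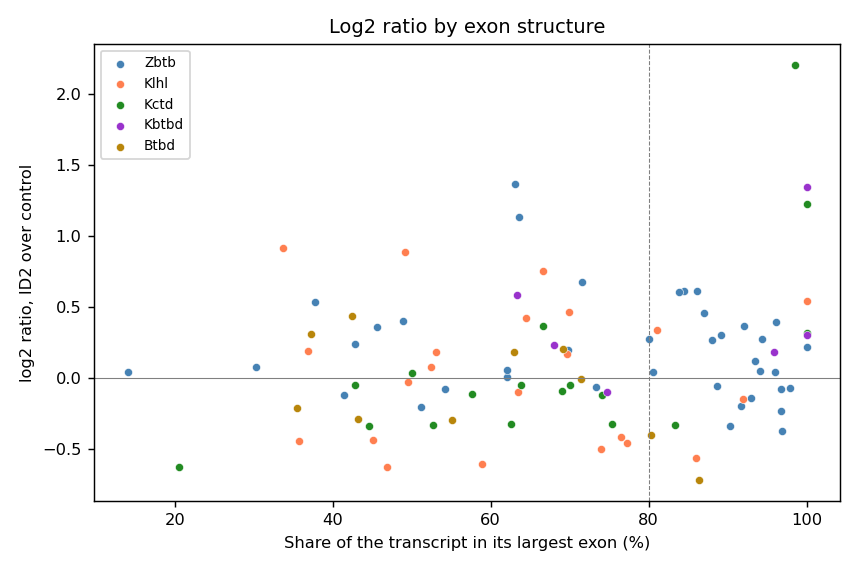
Log2 ratio of ID2 over control (y axis) against the share of the longest coding transcript that lies in its largest exon (x axis, %), 1 point a member, colored by family; the dashed line marks 80%. Kctd21, Kbtbd6 and Kctd11 are the 3 points above 1 at the right edge, and Zbtb7c and Zbtb45 are the pair above 1 between 60% and 70%.

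The libraries do not keep strand, so reads of a gene cannot be told apart from those of an exon on the other strand. In 11 members at least 10% of exon bases were shared with such exons in GENCODE, most in Kctd12 (62.8%), Kbtbd4 (55.6%) and Kctd10 (37.9%). Klhl21 (20.5%) was the 1 gene of these that was over 1.5-fold apart, and no member at least 2-fold higher was among them. Zbtb6 and Zbtb26 share exon bases on the same strand (8.84% of those of Zbtb6), and their ratios were 0.46 and −0.20. In all, 7 pairs of members were next to each other among coding genes, and 5 of them had ratios of the same sign.

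Genes of the machinery that the adaptors serve had a median near 0. Of 21 genes of the CUL3 ligase core and of its activation by NEDD8, 13 were higher (61.9%) and 8 lower (median 0.05). Of all genes above the floor 47.2% were higher. At least 1.5-fold higher was 1 gene of the list (4.76%, beside 8.00% of all genes). Cul3 stood at 4291 and 4314 (0.01). Senp8, a protease that matures and removes NEDD8, stood at 141 and 349 (1.30). Cand2 (0.58), Dcun1d3 (0.45) and the NEDD8 E2 enzyme Ube2m (0.38) followed. Of 18 corepressor genes of BTB zinc finger proteins, 13 were higher (72.2%, beside 47.2% of all genes), 4 lower and 1 equal (median 0.13). Ncor1 was the 1 of these at least 1.5-fold higher, with 11707 and 20899 (0.84), and Rcor1 (0.35), Hdac1 (0.31) and Gps2 (0.30) followed. Hdac3, the deacetylase of the NCOR complex, stood at 2277 and 2589 (0.18).

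BTB genes outside the name rule were counted in the same way. Of 10 other BTB transcription factors above the floor, 8 were higher (80%, beside 47.2% of all genes above the floor), with a median of 0.22. Bcl6, a repressor of germinal center B cells, stood at 149 and 313 (1.07), and Bach2 at 68.7 and 122 (0.82). Both lay inside the 5th-to-95th percentile range of genes at their level. Nacc1 stood at 7625 and 10081 (0.40) and Zfp131 at 588 and 737 (0.32). Of 18 other BTB adaptors, 9 were higher (50%, near the share of all genes), 8 lower and 1 equal (median 0.03). Keap1, the adaptor that holds down NRF2, stood at 392 and 679 (0.79), and Ankfy1 (0.57), Rhobtb1 (0.49) and Abtb2 (−0.57) were the next furthest from equal.

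Of 13 listed NRF2 genes above the floor, NRF2 itself included, 9 were higher (69.2%, beside 47.2% of all genes) and 4 lower (median 0.12). Srxn1, which repairs oxidized peroxiredoxins, stood at 735 and 1698 (1.21), and Nqo1, a quinone reductase, at 856 and 1369 (0.68). Pgd (0.32) and G6pdx (0.29), of the pentose phosphate pathway, were smaller. Nfe2l2, the gene of NRF2, had a ratio of −0.05. The 1 listed gene under the floor, Slc7a11, a cystine transporter named here after its values were seen, went from 81.6 to 10.05. Of 21 genes for substrates of CUL3 adaptors, 13 were higher (61.9%, beside 47.2% of all genes) and 8 lower (median 0.14). Pml (3252 and 6084, 0.90) was the 1 gene at least 1.5-fold apart. Aurka (0.39), Wnk1 (0.36) and Plk1 (0.34) followed. Of 7 Hedgehog pathway genes above the floor, 5 were higher (71.4%, beside 47.2% of all genes), and none was 1.5-fold apart. Their median was 0.32, with Smo (0.51), Sufu (0.47), Gli2 (0.44) and Gli1 (2407 and 3003, 0.32) furthest up. The lower genes were Ptch1 (2683 and 2272, −0.24) and Gli3 (−0.18).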

How the data were processed

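The deposited table gives 1 normalized signal value per gene and library (1 control, 1 ID2). The submitters' processing notes name STAR, DESeq and mm9; the versions, the counting tool and the annotation are not stated there. The deposited signal values are whole multiples of a step (0.995 in the control, 1.00 in the ID2 library), and the sorted step numbers of both libraries differ at 0 ranks, so the values had been set to a common distribution. Sequencing depth is therefore unknown, and no counting interval is given. The fold, the log2 fold and the p-value columns, adjusted p-values included, are the authors' own comparison of 1 library with 1.

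The log2 ratio used a pseudocount of 1 and a floor of 50 on the mean of both libraries, in Python 3.11.15 with pandas 2.3.3. The ratio understates differences of low genes. Higher and lower were counted on whole steps, which leave out the scaling between the libraries, while the ratios include it. Zbtb10 (323 and 322 steps, ratio 0.01) was thus counted as lower. The lines of 1.5-fold and 2-fold are sizes, not tests. The computation was tested on simulated data. Members, lists and role groups were chosen with earlier results of these data known. Full values were given for members at least 1.5-fold apart, the 3 highest means and 3 smallest ratios of each family, those next to the floor, and up to 4 genes of each partner list with Cul3, Keap1, Hdac3 and Ncor1. Exon structure came from GENCODE M21 (GRCm38, another build than mm9), matched by symbol, and promoter sequences from RefSeq. Alternatives covered scaling, pseudocount, floor, fold, members, exon structure and strand overlap.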

Additional observations from a re-analysis of the deposited data

How the results depend on the processing

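Of 345 recomputed values (6 summaries and the named members), 336 stayed within a log2 difference of 0.1 or, for counts, within 1.5 times, 7 moved and 2 summaries changed sign. Of the named members 1 changed sign, Zbtb10, from 0.01 to −0.0045 with whole steps. Several settings could hardly move a value, so this is no measure of stability. With a floor of 250, or without the members that hold at least 80% of the transcript in 1 exon, 2 members were at least 2-fold higher in place of 5. At 1.5-fold 12 were higher and 4 lower, and at 4-fold 1 was higher. With Klhl and Kbtbd alone as E3 adaptors, chosen after seeing the data, both of these signs turned: the adaptor median was 0.17 in place of −0.04, and the Zbtb median minus the adaptor median was −0.0503 in place of 0.16. With a pseudocount of 10, 2 named members moved by over 0.1, Kctd21 to 1.90 and Kbtbd6 to 1.18. Leaving out Zbtb8os, or members with strand overlap (both also chosen later), moved no summary past these limits. No paired analysis was possible because each group was 1 library. The unknown depth limits every ratio of a gene near the floor.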
